A study of Mus musculus with 4 samples.

Results

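Expanded brain clones are described here: CD4+ T cells of the brain whose T cell receptor was carried by at least 2 brain cells, split by whether the same receptor was also read in the spleen. A clonotype joined cells with 1 productive TRB chain by the V gene and CDR3 nucleotides of that TRB and of the TRA chain with most UMIs (unique molecular identifiers, each a counted RNA molecule). The rule gave 292 expanded clonotypes with 1295 brain cells, out of 2135 brain clonotypes and of 12984 RNA barcodes in both tissues. Of the 292, 80 clonotypes with 461 brain cells were also in the spleen and 212 clonotypes with 834 brain cells were not. The members and both kinds were chosen by receptor sequences and cell numbers, which are given as a description. RNA levels were not used in the choice, although those of the receptor segments follow from it.

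The cells were CD4+ CD44+ GITR- conventional T cells of WT C57BL/6 mice with EAE (experimental autoimmune encephalomyelitis, an immunised model of multiple sclerosis) at day 60, sorted from brain and spleen, and both tissues share that genotype, strain and treatment. A 5' single-cell RNA library and a T cell receptor library were made from 18718 brain cells and from 38000 spleen cells loaded. How many mice were pooled was not stated, so a clonotype may belong to 1 animal or to several. With 1 library per tissue no p-value is given: intervals cover counting error only, at the 95% level, and clonotypes of 1 library are not replicates of a condition.

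Each T cell lineage carries its own rearranged receptor, so cells with the same nucleotides at both junctions usually descend from a common ancestor. T cells leave tissues and lymphoid organs along a gradient of sphingosine-1-phosphate, which they sense through the receptor S1PR1. The transcription factor KLF2 switches on S1pr1, and the surface protein CD69 draws S1PR1 into the cell. Memory cells that stay in a tissue typically have little KLF2 and S1PR1 and much CD69, whereas cells that recirculate keep KLF2 and S1PR1.

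The largest clonotypes of each kind show what was compared. They are CDR3 nucleotides from the deposited contig tables, and capitals mark the junction stretch, the bases that neither the start shared by at least 20% of CDR3s with that V segment nor the end shared by at least 20% with that J segment covers. The first clonotype not in the spleen held 67 brain cells, the second 27 and the third 25. The first clonotype also in the spleen held 57 brain and 60 spleen cells, the second 48 brain cells and 1 spleen cell, and the third 28 brain and 3 spleen cells.
Not in spleen 1, TRBV13-3 with TRBJ2-5: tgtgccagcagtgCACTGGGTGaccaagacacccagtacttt
Not in spleen 1, TRAV13N-1 with TRAJ21: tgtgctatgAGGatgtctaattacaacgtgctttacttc
Not in spleen 2, TRBV20 with TRBJ2-1: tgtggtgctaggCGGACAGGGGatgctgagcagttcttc
Not in spleen 2, TRAV14D-3-DV8 with TRAJ12: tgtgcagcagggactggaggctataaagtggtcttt
Not in spleen 3, TRBV1 with TRBJ1-1: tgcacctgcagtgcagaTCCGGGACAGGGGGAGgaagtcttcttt
Not in spleen 3, TRAV8D-1 with TRAJ37: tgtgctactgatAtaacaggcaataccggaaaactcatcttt
Also in spleen 1, TRBV26 with TRBJ1-5: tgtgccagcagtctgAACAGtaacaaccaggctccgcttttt
Also in spleen 1, TRAV7-5 with TRAJ32: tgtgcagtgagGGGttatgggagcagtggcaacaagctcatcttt
Also in spleen 2, TRBV20 with TRBJ2-5: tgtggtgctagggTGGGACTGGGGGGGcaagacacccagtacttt
Also in spleen 2, TRAV7D-2 with TRAJ23: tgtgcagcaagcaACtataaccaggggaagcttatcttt
Also in spleen 3, TRBV26 with TRBJ1-2: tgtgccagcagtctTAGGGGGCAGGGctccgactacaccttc
Also in spleen 3, TRAV9-1 with TRAJ22: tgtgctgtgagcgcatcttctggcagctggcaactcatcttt
Long and short junction stretches occurred in both kinds. Over all expanded clonotypes the TRB stretch had a median of 10 bases in those also in the spleen and of 9.5 in those not, and the TRA stretch a median of 3 bases in both.

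Several clonotypes also in the spleen came as pairs with a common TRA. The third and the fourth largest, with 28 and 23 brain cells and with 3 and 2 spleen cells, had the same TRA nucleotides, printed above for the third. Their TRB CDR3s, both of TRBV26, differed at 13 of 42 bases, marked by capitals in the second line.
TRBV26 TRAV9-1 clonotype 1: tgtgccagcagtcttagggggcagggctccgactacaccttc
TRBV26 TRAV9-1 clonotype 2: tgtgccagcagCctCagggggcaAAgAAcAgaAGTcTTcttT
The largest, with 57 brain and 60 spleen cells, shared its TRA with a clonotype of 8 brain and 15 spleen cells, and their TRB CDR3s differed at 5 bases, again in capitals.
TRBV26 TRAV7-5 clonotype 1: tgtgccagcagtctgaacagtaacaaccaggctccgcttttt
TRBV26 TRAV7-5 clonotype 2: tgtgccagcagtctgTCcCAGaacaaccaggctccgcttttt
In all, 16 expanded clonotypes shared a TRA with another in 8 pairs, and 10 of the 16 were also in the spleen. In 1 of the 8 pairs, of 3 and 2 brain cells and both also in the spleen, the TRB nucleotides were the same too and the V calls alone differed (TRBV12-2+TRBV13-2 and TRBV13-2), so these may be 1 clone. Clonotypes of each pair are counted separately throughout, although they share part or all of their CDR3s.

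The share of clonotypes also in the spleen was 27.4% over all expanded clonotypes (80 of 292, exact Clopper-Pearson interval 22.4 to 32.9%). It was 25% for clonotypes of 2 to 4 brain cells (57 of 228, interval 19.5 to 31.1%), 30.4% for those of 5 to 9 (14 of 46, interval 17.7 to 45.8%) and 50% for those of 10 or more (9 of 18, interval 26 to 74.0%). The 3 intervals overlap in part. At the edge of the rule, clonotypes of 2 brain cells were in the spleen in 34 of 145 cases (23.4%) and those of 1 brain cell in 108 of 1843 (5.86%, interval 4.83 to 7.03%). Clone size is therefore held fixed in the comparisons of RNA that follow.

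**Figure D1:**
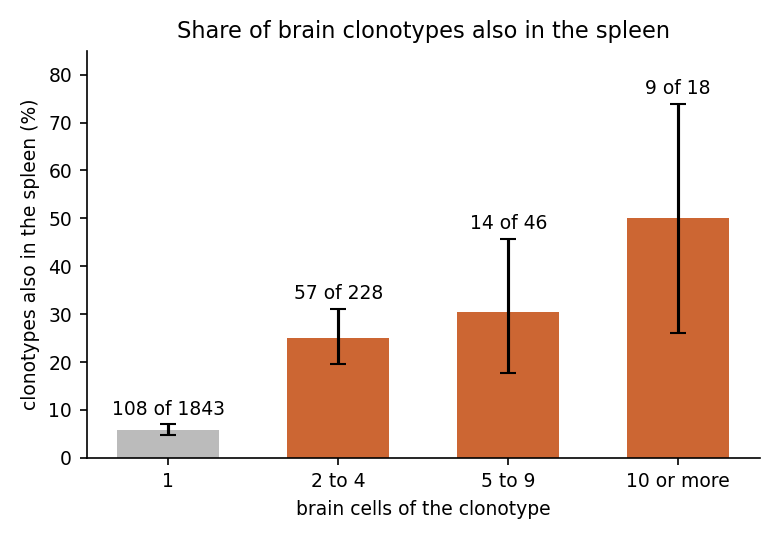
Share of brain clonotypes also read in the spleen (y axis, percent) by number of brain cells of the clonotype (x axis), with the number of clonotypes over each bar and exact 95% intervals as error bars. The grey bar, clonotypes of 1 brain cell, stands at 5.86%, and the orange bars of the expanded clonotypes stand at 25%, 30.4% and 50%.

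The 80 clonotypes accounted for 245 spleen cells, 3.63% of the 6757 spleen cells with a paired receptor. Their spleen numbers were uneven: 44 were seen in 1 spleen cell, 25 in 2 to 4 and 11 in 5 or more, with a median of 1 and a highest of 60. Brain and spleen sizes differed in both directions: 14 of the 80 had more spleen than brain cells while the clonotype of 48 brain cells had 1 spleen cell. A clonotype counted as not in the spleen had 0 of 6757 spleen cells, which allows a spleen share of up to 0.0444% (3 of 6757 cells). Absence here therefore means not read, and the 44 clonotypes of 1 spleen cell were also read below that level. Of those 212 clonotypes, 10 had their TRB in the spleen by a match on TRB alone, which also took spleen cells with no TRA read. Among these 10, 2 shared a TRA with a spleen cell once second TRA chains were counted. A spleen receptor with the same V segments and amino acids but other nucleotides was found for 7 of the 212. None of these matches was found for 199. Both kinds had similar depth, with a median of 9957 UMIs per brain cell in clonotypes also in the spleen and of 10284.5 in those not.

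RNA levels were compared as CPM (counts per 1000000 UMIs, summed over the brain cells of a clonotype), averaged with equal weight per clonotype and standardised to a common mix of the 3 size classes. In a clonotype of 2 cells, 1 UMI was worth a median of 48.8 CPM, and in one of 10 or more cells 5.19 CPM, so a single small clonotype carries little information. A clonotype's level does not tell apart more cells with a gene's RNA from more RNA per cell. A gene was counted as higher in one kind where its mean was at least 1.5 times that of the other, the gamma (Fay-Feuer) intervals did not overlap and the ratio pointed the same way in every size class. Of 6653 genes with at least 20 CPM in the higher kind, 27 (0.406%) were higher in clonotypes not in the spleen, 6 of them receptor segments, and 47 (0.706%) were higher in those also in the spleen, 2 of them receptor segments. This split depended on the scaling: TMM factors gave 38 and 36 genes, and median-of-ratios factors 35 and 39. The median log2 ratio of all genes measured (not in spleen over also in spleen) was -0.04, close to equal levels in both kinds.

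**Figure D2:**
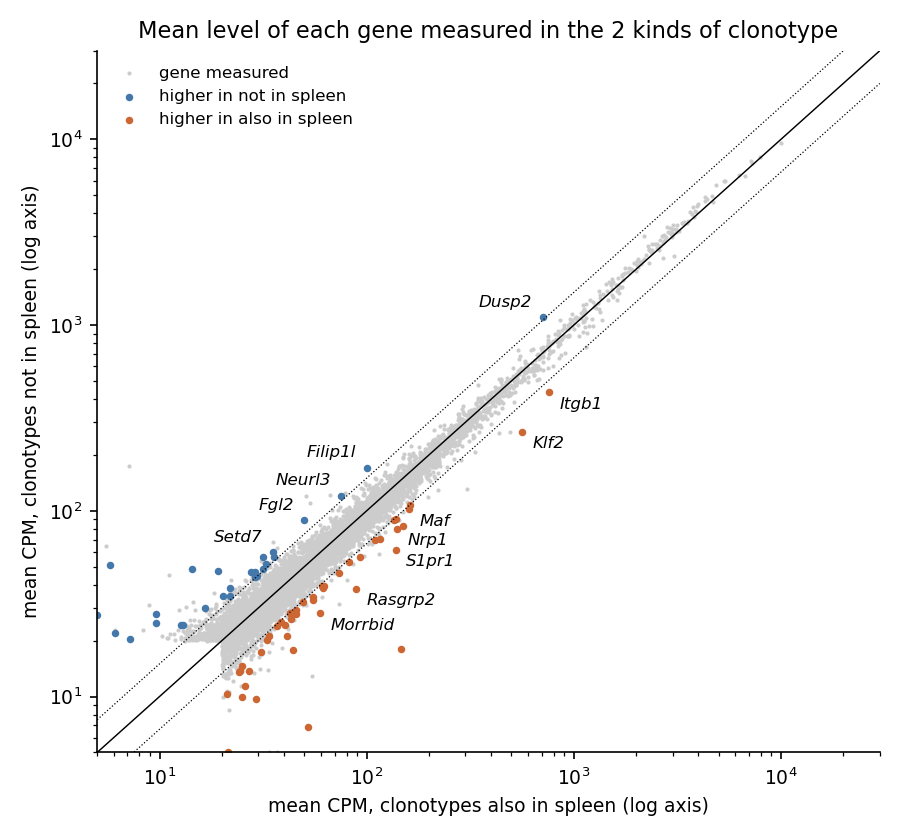
Each point is 1 of 6653 genes, with its mean CPM in clonotypes also in the spleen (x axis, log scale) and not in the spleen (y axis, log scale), values under 5 drawn at 5. The solid line marks equal levels and the dotted lines a ratio of 1.5, with 27 genes counted as higher in clonotypes not in the spleen in blue and 47 higher in those also in the spleen in orange.

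Genes of tissue exit were among those with the largest differences in clonotypes also in the spleen. Klf2 averaged 561 CPM there (interval 526 to 600) and 267 CPM in clonotypes not in the spleen (253 to 281), a ratio of 2.11. Its target S1pr1 averaged 138 CPM (121 to 158) against 61.7 CPM (54.9 to 69.5), a ratio of 2.24. Both exceeded 1.5-fold in the mean although single clonotypes of the 2 kinds overlapped widely. For Klf2, 51 of the 80 clonotypes also in the spleen and 95 of the 212 others lay above the median of all 292, and for S1pr1 the counts were 55 of 80 and 91 of 212.

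The means of both genes pointed the same way in each size class, which the rule for being counted requires, but with different weight. In clonotypes of 2 to 4 brain cells, Klf2 had a lowest, median and highest level of 0, 279 and 2984 CPM in those also in the spleen and of 0, 86.1 and 3825 CPM in the others. In clonotypes of 5 to 9 cells the means were 288 and 194 CPM but the medians, 110.4 and 151, stood in the opposite order. In clonotypes of 10 or more cells the medians were 307 CPM also in the spleen and 78.8 CPM not, and 3 of the 9 also in the spleen lay above the highest of the 9 others. S1pr1 had ratios of means of 2.13, 3.25 and 2.72 from the smallest to the largest size class, and 2 of its 9 largest clonotypes also in the spleen lay above all 9 not in the spleen. S1pr1 was counted as higher under each of the 27 alternatives run for single genes, and Klf2 under all of them except the class of 5 to 9 cells taken alone.

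**Figure D3:**
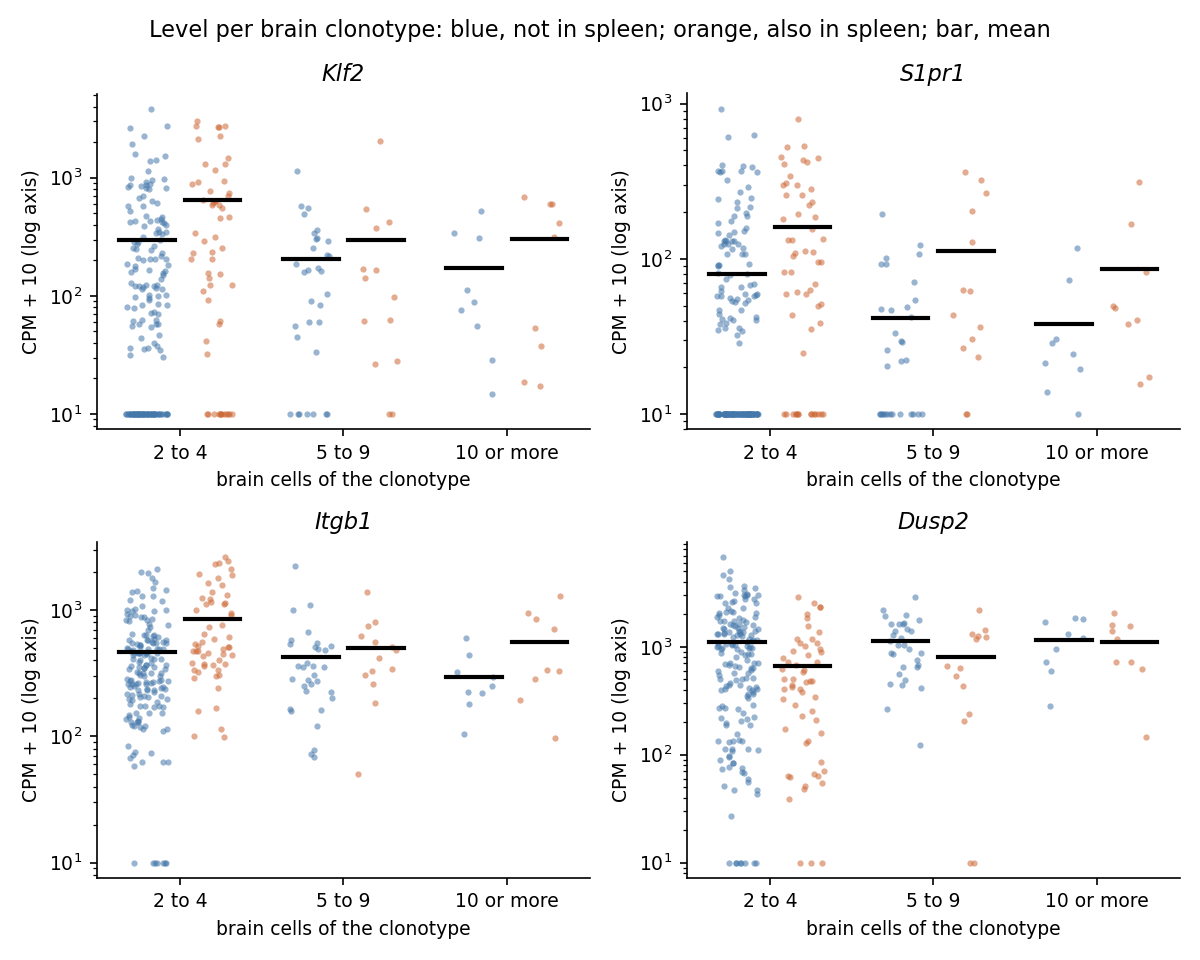
Level of 4 genes in each of the 292 clonotypes (y axis, CPM plus 10 on a log scale) by number of brain cells (x axis), blue for clonotypes not in the spleen and orange for those also in the spleen, with the class mean as a black bar. The orange means of Klf2, S1pr1 and Itgb1 lie above the blue ones in each size class while the points overlap, and Dusp2 shows the opposite order with nearly equal means (1147 and 1099 CPM) at 10 or more cells.

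Genes of adhesion and signalling were among the leading genes too. Itgb1, the beta-1 integrin chain, averaged 761 CPM (721 to 803) in clonotypes also in the spleen and 436 CPM (419 to 454) in those not, and 54 of 80 against 92 of 212 clonotypes lay above the common median. Its ratio was 1.84 at 2 to 4 cells, 1.18 at 5 to 9 and 1.95 at 10 or more, where 4 of 9 clonotypes also in the spleen exceeded all 9 others. Rasgrp2, an exchange factor that activates the integrin regulator Rap1, averaged 89.2 CPM against 38.0 CPM, a ratio of 2.34. At 5 to 9 cells its means were nearly level, 41.6 and 37.5 CPM. They changed order without the TRBV26 TRAV7-5 clonotypes (36.8 and 37.5 CPM) and without the clonotypes of 5 or more spleen cells (33.6 and 37.5 CPM), so that Rasgrp2 was then not counted, while its ratio over all sizes was 2.32 and 1.90. Nrp1, the co-receptor neuropilin-1, averaged 140.4 CPM against 80.0 CPM, and the long noncoding RNA Morrbid, which restrains the death gene Bcl2l11, 59.5 CPM against 28.2 CPM. At 5 to 9 cells the means of Nrp1 were nearly level, 84.7 CPM also in the spleen and 78.7 CPM not.

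The other leading genes of this direction had ratios between 1.51 and 1.58. The transcription factor Maf (161 against 102 CPM), the endoplasmic reticulum stress sensor Atf6 (139 against 90.3 CPM), the triglyceride enzyme Dgat1 (109 against 69.4 CPM), the actin-binding protein gene Nebl (163 against 108 CPM), the lysosomal ganglioside activator Gm2a (136 against 89.2 CPM) and Ppfia1, which encodes liprin-alpha-1 (81.9 against 53.2 CPM), each had a ratio under 1.5 when the single clonotype that added most was left out. Gzma, encoding the protease granzyme A, and Ccl1, encoding a chemokine, had ratios of 7.61 and 8.04, and were chosen for naming after their values were seen. A clonotype of 3 brain and 9 spleen cells gave 62.9% of the Gzma mean and one of 2 brain and 2 spleen cells gave 50.6% of the Ccl1 mean, and neither gene was counted without it. The ratios left were 2.87 for Gzma (19.6 against 6.83 CPM) and 3.99 for Ccl1 (72.3 against 18.1 CPM). Ccl1 did not keep its direction in clonotypes of 1 brain cell, as given below.

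In clonotypes not in the spleen, 8 genes met the rule for naming, with ratios from 1.56 to 1.78. Dusp2, a phosphatase that turns off MAP kinases, averaged 1103 CPM (1076 to 1131) against 709 CPM (674 to 746), a ratio of 1.56, and 116 of 212 against 30 of 80 clonotypes lay above the common median. The difference was in the small clones: its means were 1095 against 659 CPM at 2 to 4 cells but 1147 against 1099 CPM at 10 or more. Fgl2, encoding a fibrinogen-like protein, averaged 88.9 CPM (81.7 to 97.2) against 50 CPM (41.1 to 61.5), with ratios of means from 1.74 to 2.64 in the 3 size classes.

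Setd7, a lysine methyltransferase, averaged 60.0 CPM against 35.3 CPM, with 122 of 212 against 24 of 80 clonotypes above the common median. Its means were 58.6 against 28.7 CPM at 2 to 4 cells. They were closer in larger clones, at 69.5 and 62.3 CPM for 5 to 9 cells and 53.0 and 49.3 CPM for 10 or more. Neurl3, a ubiquitin ligase gene, averaged 121 CPM against 75.2 CPM, with near-level means of 96.7 and 88.4 CPM at 10 or more cells. Without the TRBV26 TRAV7-5 clonotypes those were 96.7 and 97.1 CPM, so that Neurl3 was not counted, with a ratio of 1.58 over all sizes. Prkd3, a protein kinase D gene, averaged 56.4 CPM against 35.6 CPM, and Sgf29, a subunit of the SAGA chromatin complex, 51.8 CPM against 32.8 CPM. Prkd3 stood at 31.9 and 29.7 CPM at 10 or more cells, and Sgf29 at 52.5 and 45.0 CPM at 5 to 9. Ifit1, an interferon-induced gene, averaged 56.3 CPM against 31.7 CPM. Filip1l had 171 CPM against 100.1 CPM, but a clonotype of 2 cells with 7953 CPM gave 21.3% of the higher mean, and the ratio was 1.35 without it.

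Gene lists gave the wider picture. Of 14 measured genes of recirculation, 3 were higher in clonotypes also in the spleen (Klf2, S1pr1 and Slamf6), none in those not, where 0.706% and 0.406% of all genes were. The median log2 ratio was -0.21, against -0.04 over all genes. It was below 0 in each size class, at -0.16, -0.26 and -0.56 from the smallest to the largest. Lists further below 0 over all sizes were Th17 (-0.57), follicular helper (-0.42), cytotoxic (-0.36), NKT cell (-0.34), cytokine (-0.29) and NKG2 receptor genes (-0.27). Each of these changed sign between size classes. Chemokine receptors and integrins (-0.12) and the sort markers (-0.02) were below 0 in each size class too. Slamf6, a receptor of the SLAM family kept by memory cells, averaged 73.5 CPM against 46.4 CPM and was not counted without its highest clonotype. Ccr7, a chemokine receptor of lymph node homing, was low in both, with 3.33 CPM in clonotypes also in the spleen and 18.8 CPM in the others, opposite in direction to Klf2 and S1pr1. Tcf7, encoding the memory factor TCF1, had 327 CPM also in the spleen and 307 CPM not, and Il7r, the interleukin-7 receptor, 569 and 583 CPM.

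Genes of tissue residency were not counted in either direction (0 of 23 measured). Their median log2 ratio was 0.17, with 18 of 23 ratios above 1 (43.4% over all genes). It was -0.10 among clonotypes of 10 or more cells and 0.06 when each cell was thinned to 3000 UMIs. Cd69 averaged 869 CPM in clonotypes not in the spleen and 752 CPM in those also in it, with 115 of 212 and 31 of 80 above the common median. Cxcr6, a chemokine receptor of resident cells, had 456 and 465 CPM, and Itga1, the alpha-1 integrin chain, 112 and 88.8 CPM. Ccr8 reached a ratio of 1.60 (125 against 78.2 CPM), but in clonotypes of 10 or more cells it stood at 85.1 and 94.3 CPM and so was not counted. Of the residency genes named here, only Ccr8 had a ratio past 1.5.

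**Figure D4:**
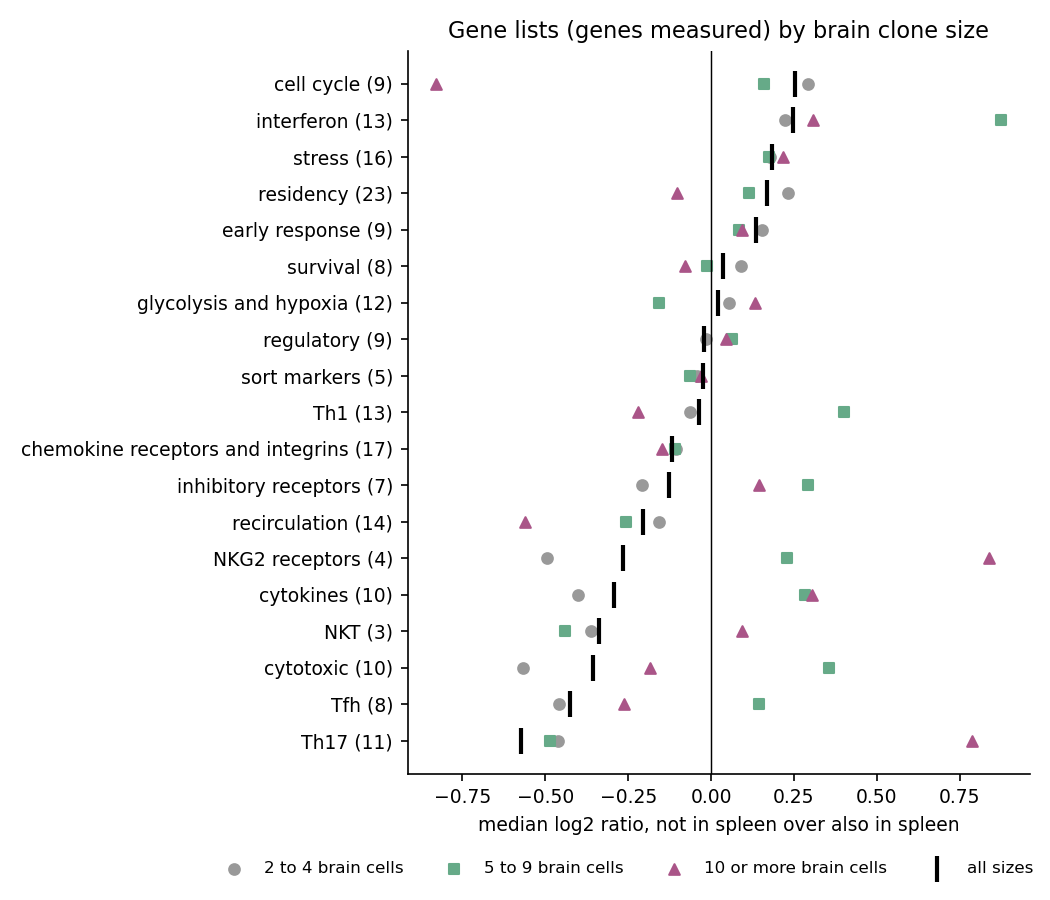
Median log2 ratio (x axis, level in clonotypes not in the spleen over level in those also in it) of the measured genes of 19 lists (y axis, number of genes in brackets), for all sizes (black bar) and for each brain clone size. The recirculation list is below 0 in each size class, as are chemokine receptors and integrins and the sort markers. Lists such as Th17 and NKG2 receptors change sign between size classes.

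Genes of helper programmes differed widely among clonotypes of the same kind. Of 11 measured Th17 genes, 1 (Maf) was higher in clonotypes also in the spleen, and the median log2 ratio was -0.57 overall but 0.79 among clonotypes of 10 or more cells. Il17a, the cytokine of Th17 cells, averaged 493 CPM in clonotypes also in the spleen and 266 CPM in the others, with a median of 0 in both, and 1 clonotype of 2 brain cells and 1 spleen cell at 8041 CPM gave 22.4% of the higher mean. That order came from clonotypes of 1 spleen cell, at a mean of 786 CPM, since those with 2 to 4 had 59.8 CPM and those with 5 or more 178 CPM. Among clonotypes of 10 or more cells the order turned, with means of 563 CPM not in the spleen and 213 CPM also in it. None of 13 Th1 genes was counted: the medians of Ifng were 267 CPM not in the spleen and 171 CPM also in it, and its means 363 and 394 CPM.

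Other lists held few counted genes, which are to be read against the 0.406% and 0.706% of all genes counted and against 43.4% of all genes with a ratio above 1. Of 10 cytokine genes, Il2, the T cell growth factor, was counted as higher in clonotypes not in the spleen (24.3 against 12.7 CPM). However, 8 of the 10 ratios were below 1, with a median log2 ratio of -0.29. Tnfsf8, another of the 10, passed 1.5-fold without being counted (437 CPM also in the spleen, 263 CPM not). Of 9 early response genes, the growth regulator Myc was higher in clonotypes not in the spleen (48.4 against 31.4 CPM). Without its highest clonotype the Myc ratio was 1.45 and Myc was not counted. Of 13 interferon genes, Ifit1 was higher in clonotypes not in the spleen, with 12 of 13 ratios above 1. None of 16 stress genes was counted, although 15 of 16 ratios were above 1, with a median log2 ratio of 0.19. None was counted among 9 cell cycle genes, 12 glycolysis genes, 7 inhibitory receptors, 8 survival genes or 9 regulatory genes. Of 10 cytotoxic genes Gzma was higher in clonotypes also in the spleen, of 8 follicular helper genes Slamf6, and of 4 NKG2 receptor genes and 3 NKT cell genes none was counted. Ratios were below 1 for 7 of the 10 cytotoxic and all 8 follicular helper genes. Within the 17 chemokine receptors and integrins Itgb1 alone was counted, and 14 of 17 ratios were below 1. Ccr2, a chemokine receptor of inflammatory homing, passed 1.5-fold without being counted (198 CPM also in the spleen, 119 CPM not), as did Itgav, the alpha-V integrin chain, in the other direction (74.9 and 121 CPM).

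The 18 clonotypes of 10 or more cells can be read one by one. Their Klf2 levels also in the spleen were 672, 8.59, 585, 406, 27.7, 43.6, 7.32, 307 and 584 CPM from the largest to the smallest clone. Those not in the spleen had 301, 45.2, 66.4, 78.8, 4.73, 18.5, 334, 517 and 102 CPM. Both kinds held clones with hardly any Klf2 and clones with a level above 500 CPM. The 2 clonotypes that share the TRAV9-1 chain printed above resembled each other, with 585 and 406 CPM of Klf2, 2026 and 1552 CPM of Dusp2 and no Il17a. The 4 highest Il17a levels were in 1 clonotype also in the spleen (1492 CPM, the one of 48 brain cells) and in 3 not in it (1819, 980 and 1940 CPM), and Klf2 was at most 78.8 CPM in these 4. The clonotype of 19 brain cells and 1 spleen cell stood out in Ifng with 6032 CPM.

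Levels of several genes differed with the number of spleen cells of a clonotype. For clonotypes with 0, 1, 2 to 4 and 5 or more spleen cells, mean Klf2 was 270, 424, 533 and 1003 CPM, and the numbers of clonotypes were 212, 44, 25 and 11. Mean S1pr1 was 62.7, 95.8, 168 and 206 CPM, and mean Itgb1 439, 524, 984 and 1053 CPM. Mean Rasgrp2 was 38.2, 54.1, 96.5 and 186 CPM. In the other direction, Fgl2 had 89.5, 66.6, 30.4 and 17.2 CPM and Setd7 60.0, 44.1, 31.4 and 20.8 CPM, whereas Dusp2, at 1102, 715, 730 and 813 CPM, differed mainly between 0 and 1 spleen cells. At the edge of the rule, the 44 clonotypes of 1 spleen cell lay, in the means of these genes other than Dusp2, between the others and those with more. Other leading genes showed no such order: Atf6 had 90.7, 146, 119 and 136 CPM, Gm2a 89.3, 136, 141 and 105 CPM, and Morrbid 28.2, 51.9, 77.3 and 39.8 CPM.

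Within the 80 clonotypes also in the spleen, Spearman's rho with the number of spleen cells was 0.46 for Itgb1, 0.39 for S1pr1, 0.33 for Rasgrp2, 0.20 for Klf2 and -0.22 for Setd7. It was -0.10 for Atf6, -0.08 for Gm2a, -0.03 for Nebl and 0.04 for Ifit1. These are descriptions over 80 clonotypes that share 1 brain library and 1 spleen library. In the 57 of them with 2 to 4 brain cells, rho was 0.47, 0.34, 0.32, 0.12 and -0.27 for the same genes. Without the clonotypes of 5 or more spleen cells, Klf2 and S1pr1 were still counted as higher. Rasgrp2, Maf, Dgat1, Nebl, Ppfia1, Dusp2 and Sgf29 were then not counted, although their ratios over all sizes kept their direction. At 10 or more cells Dusp2 then stood at 1147.5 CPM not in the spleen and 1196 CPM also in it.

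**Figure D5:**
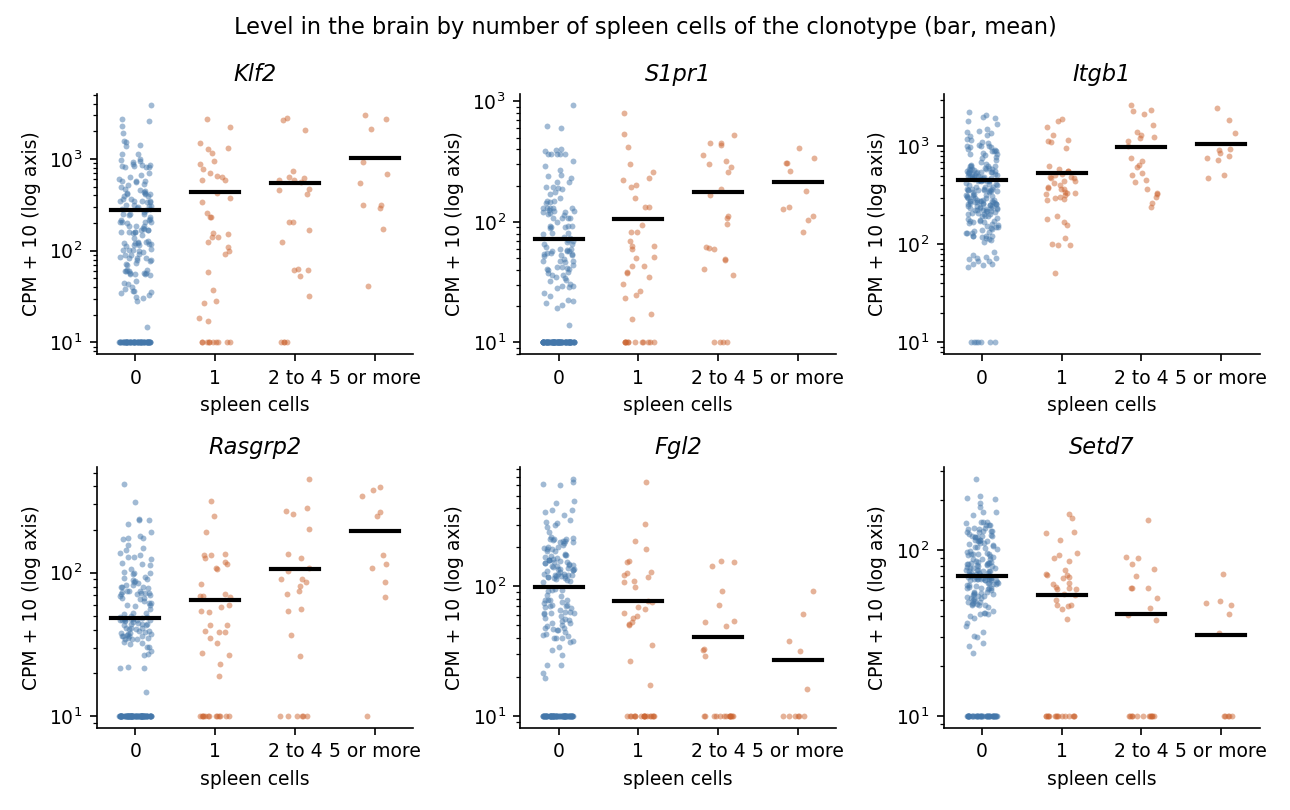
Level in brain cells of each expanded clonotype (y axis, CPM plus 10 on a log scale) by number of spleen cells of the clonotype (x axis) for 6 genes, blue for 0 spleen cells and orange for 1 or more, with means as black bars. The means of Klf2, S1pr1, Itgb1 and Rasgrp2 are higher in each next group and those of Fgl2 and Setd7 lower, with wide overlap of the points.

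Clonotypes of 1 brain cell were outside the rule and gave the same comparison in other cells of the library, 108 also in the spleen and 1735 not. Itgb1 was again higher in those also in the spleen, 755 CPM (700.3 to 815) against 364 CPM (355 to 374). Maf (170.0 against 96.3 CPM), Morrbid (43.6 against 23.5 CPM) and Nrp1 (132 against 97.8 CPM) kept their direction, as did Fgl2 on the other side (36 against 64.9 CPM). Of the 45 genes other than receptor segments that were higher in expanded clonotypes also in the spleen, 33 pointed the same way, where 3927 of all 6671 genes measured in these cells did. Of the 21 higher in clonotypes not in the spleen, 14 pointed the same way, with no share of all genes taken for that direction alone. In these cells the intervals lay apart in the same direction for 12 of the 45 and 2 of the 21. They lay apart in the opposite direction for 3 and 1.

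Klf2 and S1pr1 did not keep their direction in clonotypes of 1 brain cell. Klf2 averaged 551 CPM (505 to 602) in those also in the spleen and 991 CPM (975 to 1007) in those not, and S1pr1 161 CPM (137 to 192) against 217 CPM (209.5 to 225). Dusp2 turned as well, at 797 CPM also in the spleen and 695 CPM not. So did Ifit1, at 67.3 CPM also in the spleen and 53.4 CPM not, with overlapping intervals. Ccl1 turned too, at 1.15 CPM also in the spleen (1 UMI) and 75.9 CPM not (2274 UMIs). Gzma kept its direction, at 41.4 CPM also in the spleen and 4.02 CPM not. Of the leading genes, 10 of the 12 higher in expanded clonotypes also in the spleen and 6 of the 8 others kept their direction. The 1735 cells not in the spleen also had more of Ccr7 (224 against 31.2 CPM) and of Lef1, a transcription factor of naive T cells (313 against 115 CPM). In the expanded clonotypes Ccr7 was low, as given above, and Lef1 averaged 118 CPM also in the spleen and 113 CPM not. Their part in the result was not tested.

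Segment use is a description, since receptors chose the members. None of 18 expanded TRBV16 clonotypes was in the spleen (exact interval 0 to 18.5%), against 10 of 25 with TRBV20, 8 of 18 with TRBV26 and 7 of 15 with TRBV15. The next lowest of the 11 TRBV segments with at least 15 expanded clonotypes were TRBV2 at 3 of 18 (16.7%) and TRBV19 at 4 of 21 (19.0%), and the share over all segments was 27.4%. TRBV16 was not rare in the spleen itself, where it made up 4.44% of clonotypes, against 5.43% of brain clonotypes of 1 cell. CDR3 lengths were alike, with a TRB median of 42 nucleotides in both kinds and a TRA median of 40.5 also in the spleen and 42 not. A second productive TRA chain was present in 12 of 80 clonotypes (15%) also in the spleen and in 27 of 212 (12.7%) not.

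Most of these TRBV16 clonotypes formed a family, singled out after its values were seen. Of 18, 11 paired TRBV16 with TRAV3-3 or TRAV3N-3, held 2 to 7 brain cells each and 32 in all, and 7 of the 11 used TRAJ27. The first 4 of those 7, by size, are shown with capitals where a base differs from member 2, so that small letters are the shared frame.
Family member 1 TRB: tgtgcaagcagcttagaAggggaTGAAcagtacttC
Family member 1 TRA: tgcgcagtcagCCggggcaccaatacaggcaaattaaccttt
Family member 2 TRB: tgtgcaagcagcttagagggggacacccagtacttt
Family member 2 TRA: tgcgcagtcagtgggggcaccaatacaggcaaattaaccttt
Family member 3 TRB: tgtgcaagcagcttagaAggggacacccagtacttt
Family member 3 TRA: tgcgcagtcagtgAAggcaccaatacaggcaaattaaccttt
Family member 4 TRB: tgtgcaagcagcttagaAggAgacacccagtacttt
Family member 4 TRA: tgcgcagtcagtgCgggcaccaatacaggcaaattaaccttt
The other 6 members with TRAJ27 differed from member 2 by 1 to 6 TRB bases and by 1 or 2 TRA bases. The family made up 50 of 3138 brain cells with a paired receptor (1.59%, interval 1.18 to 2.10%) and 17 of 6757 in the spleen (0.252%, interval 0.147 to 0.403%), where it formed 17 clonotypes of 1 cell each.

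The spleen held receptors that translate to the same chains as members of the family without sharing their nucleotides. This was so for 4 of the 11, and the spleen counterpart of member 3 had the same TRB and 1 other base in its TRA, in capitals.
Spleen counterpart of family member 3 TRA: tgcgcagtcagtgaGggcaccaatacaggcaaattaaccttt
Over all V segments, 7 expanded clonotypes had 9 such spleen counterparts, which differed from them by 1 to 4 bases over both chains. Counting by amino acids in place of nucleotides therefore moved 7 clonotypes to the other kind, gave a share of 29.8% also in the spleen, and left 31 genes higher in them in place of 47.

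The family's RNA levels in the brain are again a description. Its 11 clonotypes had a lowest, median and highest Klf2 level of 0, 0 and 427 CPM and a mean of 70.6 CPM, against a mean of 280 CPM in the other 201 clonotypes not in the spleen, unstandardised. Maf averaged 14.0 CPM in the family and 106 CPM in the others, Dusp2 687 and 1124 CPM, and Cd69 1121 and 857 CPM. Its Cxcr6 and Ifng, at 410.1 and 362 CPM, lay near the 455 and 361 CPM of the others. Without any TRBV16 clonotype Klf2 and S1pr1 kept their counts as higher in clonotypes also in the spleen. Maf, Nebl and Prkd3, at ratios of 1.49, 1.498 and 1.48, were no longer counted.

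RNA of the T cell and sort markers was present in both kinds. Cd4 averaged 416 CPM in clonotypes also in the spleen and 368 CPM in the others, Cd3d 715 and 721 CPM, and Cd44 339 and 291 CPM. Tnfrsf18, which encodes the GITR protein used to exclude cells in the sort, had 158 and 166 CPM of RNA although the sort removed cells with the protein, and Foxp3 8 and 25 UMIs in all. Summed markers of other cells were 50.3 and 37.7 CPM for CD8 T cells (Cd8a and Cd8b1), 66.3 and 69.6 CPM for B cells, nearly all Ighm, 144 and 151 CPM for myeloid cells, nearly all Cst3, and 269 and 249 CPM for neural and endothelial cells, nearly all Mbp and Pecam1, while the 3 erythroid markers were at 0 UMIs. A clonotype of 2 brain cells and 1 spleen cell gave 80.8% of the Cd8b1 mean in clonotypes also in the spleen, and without it Cd8b1 was at 6.51 CPM against 26.1 CPM in the others. Their part in the results was not tested. Of the barcodes, 31 in the RNA files and 9 in the receptor files occurred in both tissues, 0 of the 9 with the same clonotype. Leaving the 9 out of the spleen receptors changed neither the share nor either count of genes. The brain cells on these barcodes, 4 of them members, were not left out.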

How the data were processed

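Brain and spleen cells were measured by 5' RNA and T cell receptor libraries, and the brain RNA and both receptor files were used, with spleen RNA for barcode checks only. The deposited matrices hold UMI counts and the deposited contig tables hold receptor calls, both made with Cell Ranger 9.0.0 per the submitters' processing notes. Several mouse builds are listed there with no role, and coordinates were not used. RNA barcodes were kept with at least 500 genes, 1000 UMIs and at most 10% mitochondrial UMIs (4143 of 4277 in brain, median 9974 UMIs; 8474 of 8707 in spleen). No doublet caller was run; barcodes with more than 1 productive TRB (179 in brain, 315 in spleen) were left out. Membership was decided by 6757 of 7549 spleen receptor barcodes, those with 1 productive TRB and 1 or 2 productive TRA chains, without the RNA filter.

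UMIs were summed per clonotype, scaled to CPM and standardised over size classes, with code tested on simulated data. The simulation gave all clonotypes a common profile apart from genes changed between the kinds. It therefore did not test the rule under the spread between clonotypes seen here. Members and gene lists were chosen with earlier results of these data known. Genes named are those counted as higher with at least 50 CPM, at most 12 per direction, ranked by the difference of mean log2(CPM + 50) and without receptor, ribosomal, mitochondrial, sex-linked and unnamed genes, plus up to 4 per list and the sort markers. Single values of some list members are not reported here. Within gene lists, 2 symbols had no match in the files. Alternatives were other scalings (TMM from edgeR 4.0.16), level and fold limits, weights, clone definitions and left-out clones. Python 3.11.15, numpy, scipy and pandas were used.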

Additional observations from a re-analysis of the deposited data

How the results depend on the processing

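The 20 leading genes kept their direction in all 540 values under the alternatives and passed the rule for being counted in 416; that direction is the one they were chosen for. The share also in the spleen was 50% in clonotypes of 10 or more cells and 14.5% when clonotypes of 1 spleen cell were left out; the other definitions tried gave values within the interval of the main share. For genes higher in clonotypes not in the spleen (27) and also in the spleen (47), a minimum of 50 CPM gave 9 and 23, a 2-fold ratio 8 and 12, and means of log2(CPM + 50) 1 and 4. No size classes gave 60 and 96. Taken alone, clonotypes of 2 to 4 cells gave 73 and 135, of 5 to 9 cells 136 and 95, and of 10 or more cells 91 and 126. At least 2 spleen cells gave 66 and 112, and amino acids 31 for the second count. Left out after seeing the data, each gene's leading clonotype gave 15 and 21. In clonotypes of 10 or more cells the medians were -0.10 for residency and -0.56 for recirculation; thinning each cell to 3000 UMIs gave 0.06 and -0.19. Some named genes were counted under an alternative in the direction opposite to their main ratio. Genes that changed sign without being counted, such as Ccr8, are not listed with them. Log2 ratios of the genes so counted were 0.72 for Xcl1 at 2 to 4 cells. At 5 to 9 cells they were 1.22 for Ccl5, 0.84 for Ifng, -0.85 for Klrb1b, -1.0 for Atf3 and 0.74 for Tbx21. At 10 or more cells they were -1.10 for Itga1, -0.90 for Il12rb2, 1.40 for Il17a, 0.96 for Il1r1 and 1.26 for Klrk1, and with at least 2 spleen cells 1.40 for Il17a. The cause was not tested. No paired analysis was possible because each tissue has 1 library.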
